A study of Mus musculus with 6 samples.

Results

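The DEAD-box and DEAH-box helicases with roles outside RNA sensing were compared between WT and *Ifnar1*-/- monocytes of the CNS in EAE, an autoimmune mouse disease that models multiple sclerosis and is induced with a myelin antigen. Members were all protein-coding genes whose GENCODE M21 symbol is Ddx or Dhx followed by a digit, except the RNA sensors *Ddx58*, *Dhx58*, and *Ddx60*. The rule selected 50 genes, 35 Ddx and 15 Dhx, of the 54232 genes in the files, of which 21983 were protein-coding. It used no measured value, and 46 of the 50 genes passed the filter on low counts. Both groups came from mixed BM chimeras, in which lethally irradiated GFP+ recipients were given WT (CD45.1) and *Ifnar1*-/- (CD45.2) BM cells at equal numbers. All recipients were immunized with MOG peptide in CFA with pertussis toxin and received 30000 IU of rIFN-β per day, so both groups shared the treatment and no PBS-treated library entered the comparison. Monocytes were sorted from the CNS at disease peak as GFP-CD45+CD11b+Ly6C hi Ly6G- cells, and 3 WT and 3 *Ifnar1*-/- libraries, numbered 1 to 3 in each group, were sequenced. *Ifnar1*-/- cells lack the receptor chain in every cell type of the donor, GFP- cells are those derived from the transferred BM, and the ages of the mice are not given in the sources used here. Each recipient carried cells of both genotypes, and the paper's legend lists as many recipients as libraries per group. By this legend the groups are not separate sets of mice. The main test was unpaired and does not account for mice shared between the groups. The sources do not say whether a library was made from a single recipient or whether libraries of equal number shared a recipient. The p-values therefore measure the spread between these libraries. Sources used here do not name the strand setting of the counting.

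DEAD-box and DEAH-box proteins are named for the amino acids of a conserved ATP-binding motif, and they use ATP to unwind RNA duplexes or to remove proteins from RNA. DEAD-box helicases open short duplexes locally, whereas many DEAH-box helicases move along a strand and are switched on by cofactors with a G-patch domain. The members accompany RNA from transcription through splicing, export, and translation to decay, and many of them build ribosomes in the nucleolus. The sensors left out by the rule are relatives that recognize viral RNA, and their genes are known to be induced by type I IFNs.

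Libraries held between 4531782 and 7321380 expected counts (read counts estimated by RSEM). The level that 3 counts stand for, the floor used here, was 0.410 to 0.662 CPM. This floor was scaled to the total expected counts of each library and covers counting error only. All other CPM are counts scaled to TMM-normalized library size. The targeted gene, *Ifnar1*, was measured at 153, 126, and 111 CPM in WT (libraries 1, 2, and 3, the order used throughout) and at 110, 102, and 109 CPM in *Ifnar1*-/- monocytes (log2 fold change WT over *Ifnar1*-/- 0.28, SE 0.15, edgeR adjusted p = 0.360). Its total therefore did not separate the genotypes by this test, while the effective length that RSEM assigned to its transcripts was 3357, 2999, and 3102 bases in WT and 2045, 2098, and 2299 bases in *Ifnar1*-/- libraries, without overlap. Monocyte markers were abundant in both groups, at 7490 to 9100 CPM summed over 6 genes in WT and 7980 to 9130 CPM in *Ifnar1*-/- libraries.

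Levels of helicase transcripts in these monocytes ranged widely between genes. TPM, a level per transcript length, is used here mainly to set different genes side by side. Protein-coding genes summed to 347986 TPM in WT library 1 and to 432201 to 515995 TPM in the other libraries. Differences between genotypes in TPM carry this difference in scale. *Ddx5*, a coregulator of transcription and splicing, stood highest with 455 ± 71.2 TPM in WT and 557 ± 37.2 TPM in *Ifnar1*-/- monocytes (mean ± SD, n = 3). *Ddx3x*, which promotes translation initiation on structured mRNAs, followed with 173 ± 45.1 and 215 ± 4.58 TPM. *Dhx15*, which disassembles spliceosomes, came after them with 59.3 ± 17.7 and 77.7 ± 7.12 TPM. *Ddx39b*, *Ddx17*, *Dhx9*, and *Ddx24* had means over all libraries of 58.5, 54.6, 52.3, and 51.2 TPM, and neighbours in this order differed by less than their SDs. Mean levels reached at least 10 TPM for 27 of the 50 genes and stayed below 1 TPM for 4, and the lowest tested gene was *Ddx11*, a DNA helicase of sister chromatid cohesion, with 1.26 TPM.

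**Figure D1:**
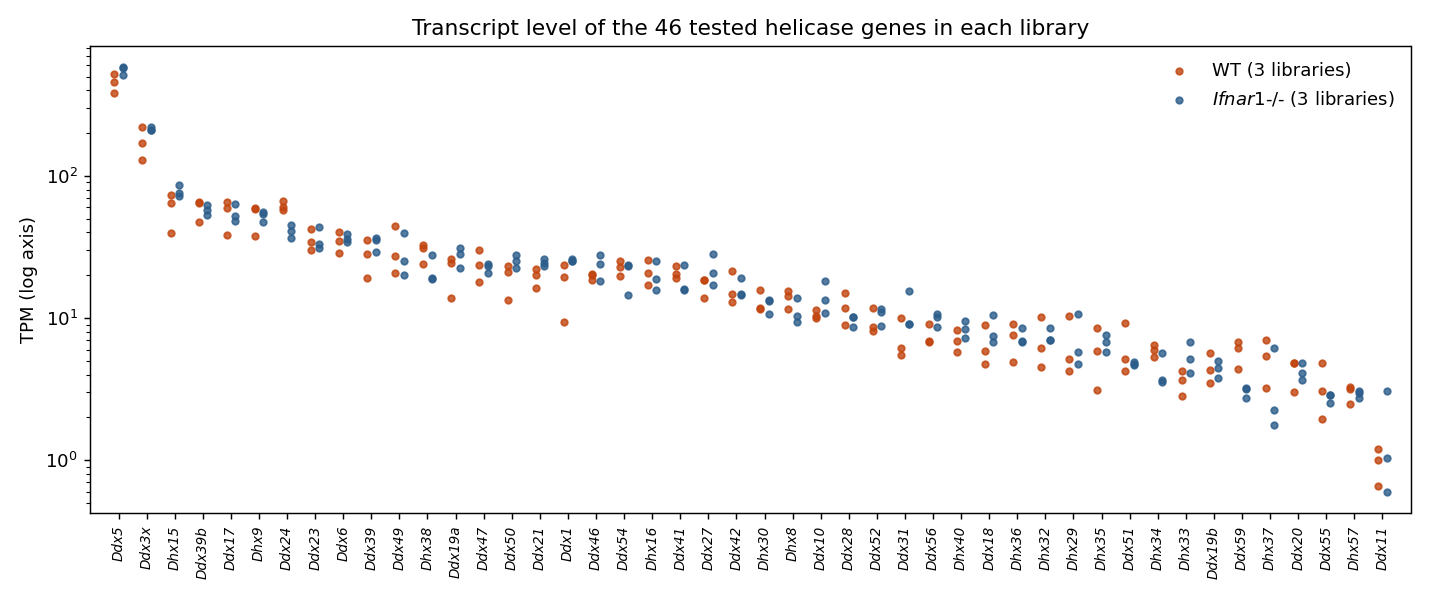
TPM (log axis) of the 46 tested helicase genes in each of 3 WT and 3 *Ifnar1*-/- libraries, ordered by mean level, with 1 point per library. *Ddx5* and *Ddx3x* lie above all others in both groups, and WT and *Ifnar1*-/- points of most genes overlap.

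The 4 genes that did not pass the filter were the germline helicases and the Y-linked copy of *Ddx3x*. *Ddx4*, the vasa homologue of germ cells, had 0 to 3 counts per library, *Ddx25* had 1 count in a single WT library, and *Ddx43* had 1 count in each of 2 *Ifnar1*-/- libraries. *Ddx3y* was at 0 in all 6 libraries, which allows up to 0.410 to 0.662 CPM per library on the scale of total expected counts. No comparison was made for these genes.

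Of the 46 tested members, 1 was called differentially expressed (adjusted p of at most 0.05 and fold change of at least 1.5, edgeR), which is 2.17% against 2.13% of all 11254 tested genes. That gene, *Ddx24*, was upregulated in WT monocytes, as were 1.67% of all tested genes. No member was called downregulated by edgeR or by DESeq2, beside 0.462% of all tested genes by edgeR. DESeq2 also called 1 member, *Ddx24*, and 4.17% of all tested genes in either direction. At an unadjusted p under 0.05 in edgeR, 8 members (17.4%) passed, against 17.8% of all tested genes, with 3 higher in WT (9.69% of all genes) and 5 lower (8.14% of all genes). Libraries of the genotypes did not overlap for 9 members (19.6%, against 23.4% of all tested genes). WT was higher for *Ddx24* and *Ddx59* (11.1% of all genes) and lower for *Ddx1*, *Ddx31*, *Ddx39*, *Ddx3x*, *Ddx50*, *Ddx56*, and *Dhx15* (12.2% of all genes). The shares of members past these criteria in either direction were therefore close to or under those of all genes.

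Most members differed little between genotypes, in either direction. Their log2 fold changes (WT over *Ifnar1*-/- throughout) ran from -0.49 to 0.84 with a median of -0.05, beside a median of -0.01 for all tested genes. Above 0 lay 21 members and below 0 lay 25. The median size of the change, regardless of direction, was 0.25 for members and 0.24 for all tested genes on the log2 scale. For 19 of 46 members (41.3%, against 30.7% of all tested genes) the 95% interval lay wholly within a 1.5-fold difference in either direction. For the other 27 the interval reached past 1.5-fold. In 8 of these, the members with an unadjusted p under 0.05, it left out 0, and in 19 it held both 0 and a 1.5-fold difference. Median SE was 0.18 for members and 0.21 for all tested genes.

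**Figure D2:**
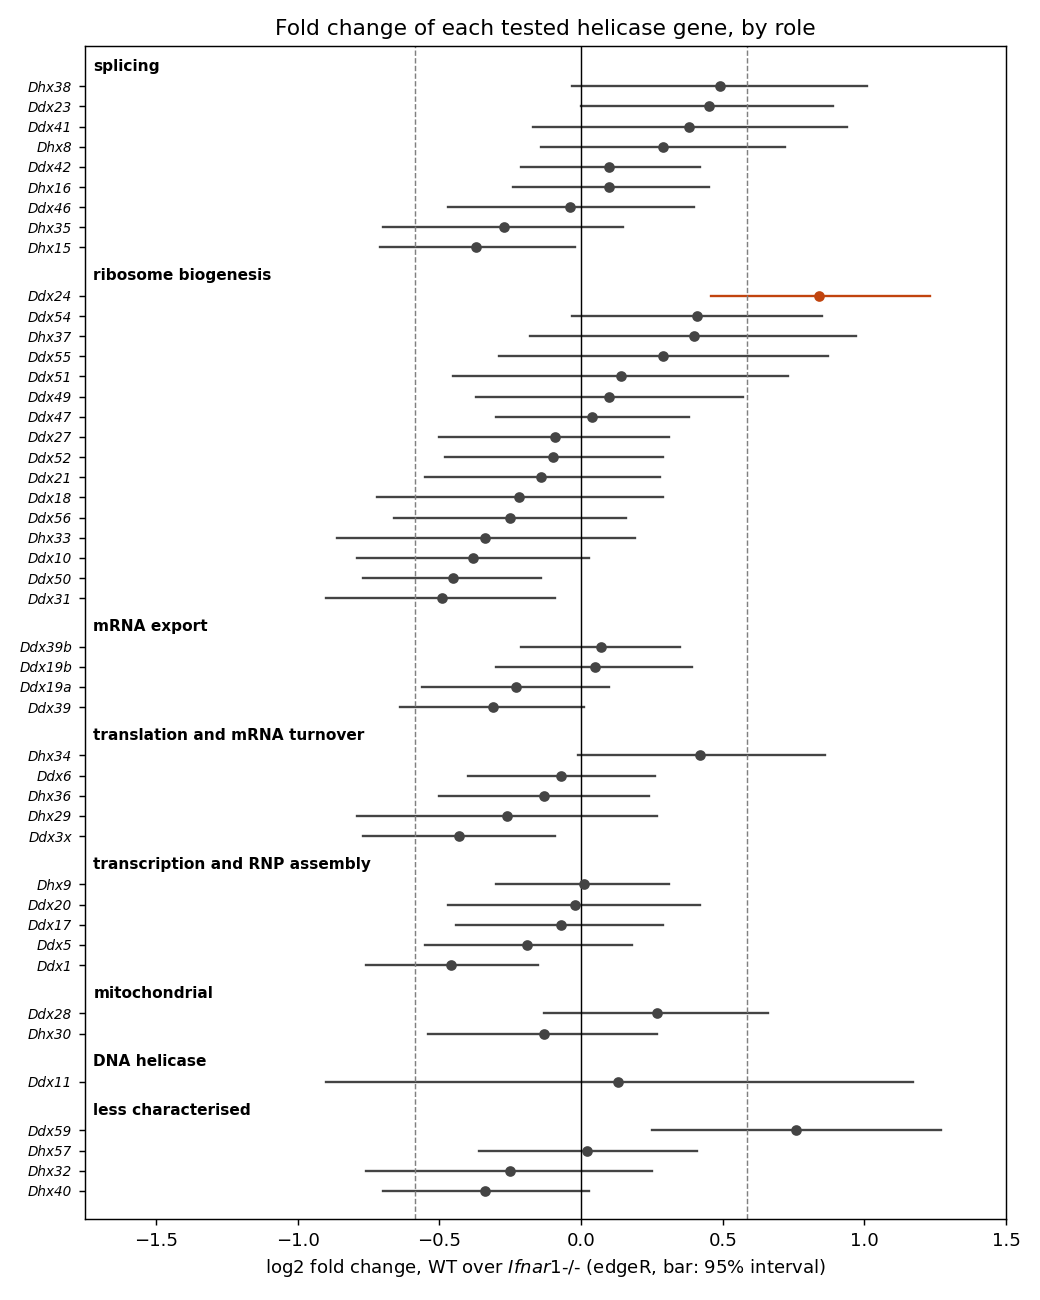
Log2 fold change (WT over *Ifnar1*-/-, edgeR) of each of the 46 tested helicase genes with its 95% interval, grouped by role, and dashed lines at a 1.5-fold difference. Only *Ddx24* (red) passed both thresholds, at 0.84, and the remaining points lie between -0.49 and 0.76.

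*Ddx24* encodes a nucleolar DEAD-box protein of ribosome biogenesis. The gene (ENSMUSG00000041645.14) lies on chromosome 12 of GRCm38 at 103407982 to 103425830 on the minus strand. Its level was 177, 113, and 136 CPM in the WT libraries and 81.4, 81.7, and 75.0 CPM in the *Ifnar1*-/- libraries. All WT libraries were thus above all *Ifnar1*-/- libraries, and WT library 1 was the highest. Means were 142 ± 32.0 and 79.4 ± 3.76 CPM (SD, n = 3), a 1.79-fold difference (log2 fold change 0.84, SE 0.17, 95% interval 0.46 to 1.23, edgeR adjusted p = 0.0353). A two-sided exact permutation test gave p = 0.1, the smallest that 3 libraries against 3 can give. TPM of *Ddx24*, 61.5 ± 4.59 in WT and 41.0 ± 4.22 in *Ifnar1*-/- monocytes, also did not overlap.

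*Ddx24* was higher in WT in all 21 alternatives, and the call was lost in some of them. It was kept without WT library 2 (log2 fold change 0.99, adjusted p = 0.0213, edgeR). It was lost without WT library 1 (0.66, adjusted p = 0.0568), WT library 3 (0.90, adjusted p = 0.0842), or *Ifnar1*-/- library 1 (0.88, adjusted p = 0.151), 2 (0.88, adjusted p = 0.0968), or 3 (0.82, adjusted p = 0.153). With limma on log2(TPM + 1) the log2 difference was 0.58 with an adjusted p of 0.471, and with DESeq2 it was 0.86 with an adjusted p of 0.00126. Adjusted p ranged from 0.000126 to 0.473, and 8 of the 21 alternatives ended the call. The alternative with an adjusted p alone, counted among the 21, reuses the main fit, so it could not end a call.

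Markers of T cells were also higher in WT libraries. Summed over 10 genes, they reached 98.7 to 135 CPM in WT and 48.5 to 57.3 CPM in *Ifnar1*-/- libraries. *Il7r* alone made up most of these sums, with 83.1, 75.7, and 53.5 CPM in WT and 34.2, 47.6, and 37.1 CPM in *Ifnar1*-/- libraries. None of the 10 genes was at 0 in all libraries, and 7 of 10 were higher in WT without overlap. All 8 tested genes lay above 0, and none was called. NK cell markers (5 genes, *Klra8* at 0) summed to 7.01 to 16.6 CPM in WT and 1.53 to 4.43 CPM in *Ifnar1*-/- libraries. Most of this sum was *Gzmb*, at 6.26, 6.59, and 13.6 CPM in WT and 4.43, 1.36, and 1.47 CPM in *Ifnar1*-/- libraries. It was the only gene of the list to pass the filter, so the sum says little about NK cells. Sums of neutrophil, microglia, dendritic cell, neural, and cell cycle genes overlapped between genotypes, and the 6 monocyte markers were divided, with 3 above and 3 below 0. Of these, *Ly6c2*, which encodes the sort marker Ly6C, was called higher in WT (log2 fold change 1.40, adjusted p = 0.00957, edgeR), while *Fcgr1* (0.71) and *Ccr2* (-0.62) did not overlap without being called. The part of these differences in the result for *Ddx24* was not tested, and in bulk samples fewer cells of a type and less RNA per cell cannot be told apart.

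Genes beside *Ddx24* include the IFN-induced *Ifi27* and *Ifi27l2a*. *Ifi27l2a*, 16337 bases away, was at 135, 116, and 83.1 CPM in WT and at 4.28, 3.39, and 2.21 CPM in *Ifnar1*-/- libraries (log2 fold change 5.06, edgeR adjusted p = 5.23e-06). *Ifi27*, 8381 bases away, had a log2 fold change of 1.34 (adjusted p = 0.0990). The unclassified gene model *Gm47260* overlaps *Ddx24* on the same strand, with at most 85 counts in any library and a log2 fold change of 0.97 (adjusted p = 0.150). Neither gene had a fractional count in any library.

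Promoter windows are shown for *Ddx24*, the only called member, and *Ddx60*, a sensor left out by the rule. The pair was picked because the genes differ in the size of their change and in holding an IFN-type motif. A pair picked in this way cannot relate the motif to the change, and that relation was not tested. The windows are from RefSeq (GRCm38.p6) and run 5′ to 3′ from 250 bases before to 50 bases after the start of the gene. *Ddx24* is at chr12:103425798-103426097 on the minus strand and *Ddx60* at chr8:61927837-61928136 on the plus strand. Capitals mark the core of the IFN-stimulated response element, which is GAAA, any 2 bases, and GAAA, searched on both strands.
Ddx24: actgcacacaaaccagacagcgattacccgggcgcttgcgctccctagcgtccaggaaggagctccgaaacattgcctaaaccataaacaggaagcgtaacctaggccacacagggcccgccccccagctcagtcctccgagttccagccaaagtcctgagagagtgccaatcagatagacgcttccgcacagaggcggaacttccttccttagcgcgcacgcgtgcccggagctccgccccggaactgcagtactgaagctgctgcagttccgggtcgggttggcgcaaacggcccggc
Ddx60: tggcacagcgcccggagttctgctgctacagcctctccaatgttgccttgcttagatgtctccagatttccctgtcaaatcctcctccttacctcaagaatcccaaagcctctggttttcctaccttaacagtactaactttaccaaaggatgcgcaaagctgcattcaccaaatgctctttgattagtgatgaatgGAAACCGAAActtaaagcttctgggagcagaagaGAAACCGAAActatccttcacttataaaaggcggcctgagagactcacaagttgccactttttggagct
*Ddx60* held the motif 53 and 19 bases before its start, and *Ddx24* held it nowhere in the window. Of the other sensors left out by the rule, *Ddx58* held the motif too, and *Dhx58* had no window. A window was given for 45 of the 50 members, and *Ddx11*, *Ddx23*, *Ddx39*, *Ddx6*, and *Dhx38* had none. Of the 45, 1 held this motif (2.22%, *Ddx49*), against 943 of the 27025 windows searched (3.49%). The search took 1 window per gene, the first listed, and left out 1 chromosome. *Ddx49*, which acts in ribosome biogenesis, had a log2 fold change of 0.10 (adjusted p = 0.848, edgeR). The STAT-type motif TTC, any 3 bases, and GAA was searched in the same way. It was held by 3 members (6.67%, *Ddx51*, *Ddx56*, and *Dhx35*) and by 8.47% of the windows searched. Their log2 fold changes were 0.14, -0.25, and -0.27, and none was called. A match is a description of the letters in a window only.

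*Ddx59*, a less characterised DEAD-box gene linked to ciliary signaling, had the next largest fold change. Its level was 9.25, 10.4, and 8.29 CPM in WT and 4.89, 5.93, and 5.70 CPM in *Ifnar1*-/- monocytes, again without overlap. The log2 fold change was 0.76 (SE 0.23, 95% interval 0.25 to 1.27), and it did not pass the test (edgeR adjusted p = 0.131). These values rest on 31 to 65 counts per library, and adjusted p stayed between 0.119 and 0.503 in 21 alternatives. *Ddx59* lies on chromosome 1, 1.62 Mb from *Ptprc*, the CD45 gene at which WT and *Ifnar1*-/- donors differed, so donor sequence around CD45 and the genotype cannot be told apart for it. *Dhx9* and *Ddx18*, the other members on that chromosome, lie 15.3 and 16.5 Mb from *Ptprc* and had log2 fold changes of 0.01 and -0.22. The noncoding *9230116N13Rik* overlaps *Ddx59* on the opposite strand, with at most 21 counts in any library and a log2 fold change of -0.59. *Camsap2* and *Kif14*, which lie 69167 and 26185 bases from *Ddx59*, were at 0.23 and -0.14. None of these genes was called.

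Among the 9 splicing helicases, none was called, 6 lay above 0, and the median log2 fold change was 0.10. *Dhx38*, which acts before the second step of splicing, was at 185, 92.9, and 120 CPM in WT and 85.5, 111, and 87.4 CPM in *Ifnar1*-/- libraries (0.49, adjusted p = 0.308, edgeR). *Ddx23*, a component of a spliceosomal snRNP, was at 95.2, 59.1, and 79.0 CPM in WT and 47.8, 69.5, and 54.4 CPM in *Ifnar1*-/- libraries (0.45, SE 0.20, adjusted p = 0.280). Both genes were highest in WT library 1 and overlapped between groups. In TPM, *Ddx23* was 35.7 ± 6.20 in WT and 35.9 ± 6.84 in *Ifnar1*-/- monocytes. These TPM carry the lower protein-coding total of WT library 1. Effective length of *Ddx23* was 1963, 1425, and 2664 bases in WT and 1250, 1600, and 1545 bases in *Ifnar1*-/- libraries. *Dhx15* went the other way, with 136, 153, and 172 CPM in WT and 221, 173, and 200 CPM in *Ifnar1*-/- libraries (-0.37, SE 0.15, adjusted p = 0.251). *Ddx41*, *Dhx8*, *Ddx42*, *Dhx16*, *Ddx46*, and *Dhx35* ran from 0.38 to -0.27.

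The 16 ribosome biogenesis helicases included the called *Ddx24*, with 7 above 0, 9 below 0, and a median of -0.09. *Ddx31* had the lowest fold change of all members, with 12.5, 14.7, and 12.2 CPM in WT and 16.6, 21.2, and 17.7 CPM in *Ifnar1*-/- libraries (-0.49, SE 0.18, adjusted p = 0.196, edgeR). *Ddx50* was at 38.7, 38.9, and 42.1 CPM in WT and 60.9, 48.0, and 54.8 CPM in *Ifnar1*-/- libraries (-0.45, SE 0.14, adjusted p = 0.139). WT libraries of both genes were all under the *Ifnar1*-/- libraries, without passing the test. *Ddx21*, the nucleolar paralog that neighbours *Ddx50* on chromosome 10, was at 113, 68.0, and 78.4 CPM in WT and 92.2, 98.3, and 95.6 CPM in *Ifnar1*-/- libraries (-0.14, adjusted p = 0.749). WT library 1 was its highest and WT library 2 its lowest value. The remaining genes, *Ddx10*, *Dhx33*, *Ddx56*, *Ddx18*, *Ddx52*, *Ddx27*, *Ddx47*, *Ddx49*, *Ddx51*, *Ddx55*, *Dhx37*, and *Ddx54*, ran from -0.38 to 0.41.

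**Figure D3:**
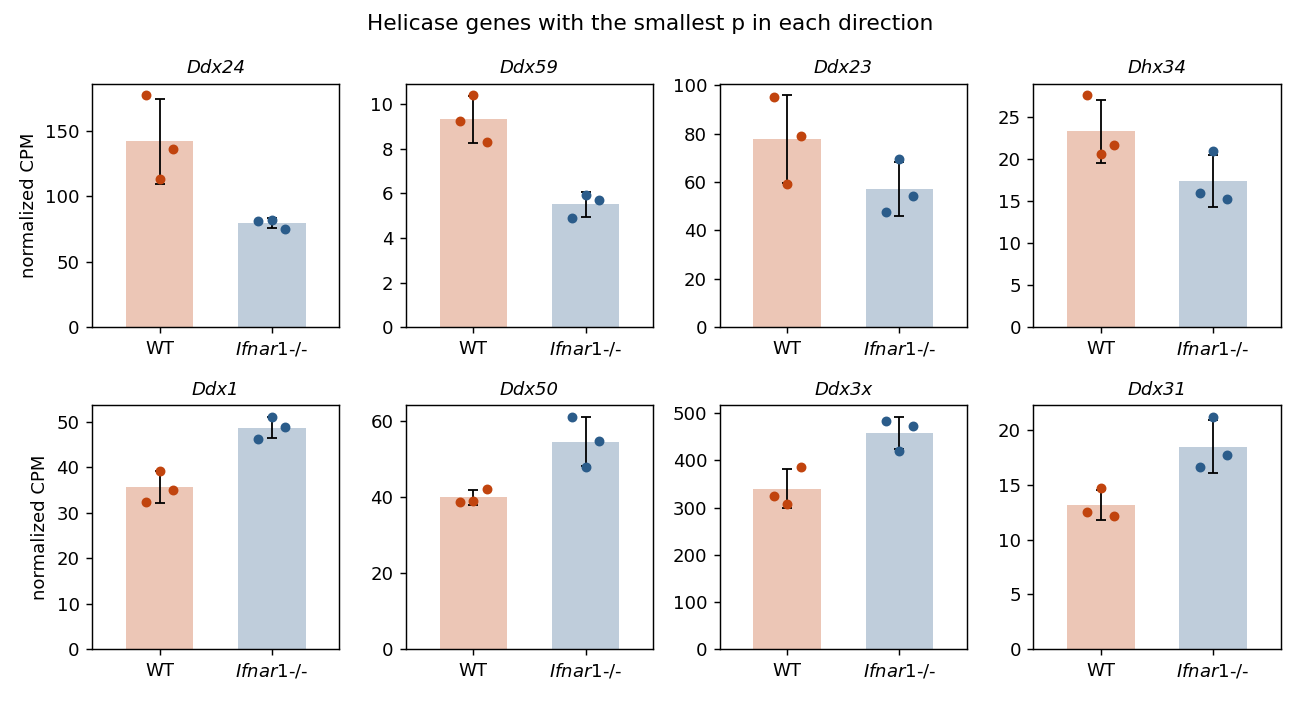
Normalized CPM of the 4 helicase genes with the smallest p in each direction, in 3 WT (red) and 3 *Ifnar1*-/- (blue) libraries, with points for libraries, bars for the mean, and error bars for the SD. *Ddx24*, *Ddx59*, *Ddx1*, *Ddx50*, *Ddx3x*, and *Ddx31* do not overlap between genotypes, *Ddx23* and *Dhx34* overlap, and only *Ddx24* was called.

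The 4 mRNA export helicases form pairs of paralogs, and no pair held a called gene. *Ddx39* was at 38.7, 50.6, and 41.7 CPM in WT and 57.9, 53.4, and 51.1 CPM in *Ifnar1*-/- libraries (-0.31, SE 0.15, adjusted p = 0.294, edgeR). Its paralog *Ddx39b*, which loads export factors onto spliced mRNA, was at 101, 95.9, and 99.1 CPM in WT and 91.8, 91.7, and 98.4 CPM in *Ifnar1*-/- libraries (0.07, adjusted p = 0.810). *Ddx39* overlaps *Adgre5* on the opposite strand, which held up to 2178 counts. *Ddx19a*, whose protein acts at the nuclear pore, was at 36.3, 44.0, and 47.8 CPM in WT and 46.1, 53.2, and 50.9 CPM in *Ifnar1*-/- libraries (-0.23, adjusted p = 0.448). *Ddx19b* was at 26.6, 26.8, and 24.7 CPM in WT and 26.6, 26.9, and 21.9 CPM in *Ifnar1*-/- libraries (0.05, adjusted p = 0.907). *Ddx19a* and *Ddx19b* had fractional counts in all 6 libraries, so part of their reads was divided by RSEM between similar genes.

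Translation and mRNA turnover held 5 tested genes, 1 above and 4 below 0, with a median of -0.13. *Ddx3x* was at 325, 308, and 386 CPM in WT and 483, 420, and 472 CPM in *Ifnar1*-/- libraries, without overlap (-0.43, SE 0.15, 95% interval -0.77 to -0.09, adjusted p = 0.176, edgeR). *Ddx6*, which represses translation and promotes decapping, was close to equal, with 230, 195, and 223 CPM in WT and 255, 202, and 222 CPM in *Ifnar1*-/- libraries (-0.07, adjusted p = 0.855). *Dhx34*, a gene of nonsense-mediated decay, was at 27.6, 20.6, and 21.7 CPM in WT and 16.0, 21, and 15.3 CPM in *Ifnar1*-/- libraries (0.42, adjusted p = 0.286). With offsets for GC content and length the log2 fold change of *Dhx34* was 0.04. *Dhx36*, which resolves G-quadruplexes, and *Dhx29*, an initiation helicase, were at -0.13 and -0.26.

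Of the 5 genes of transcription and RNP assembly, 4 lay below 0, with a median of -0.07. *Ddx1*, which takes part in tRNA ligation, had the smallest p among genes lower in WT, with 32.3, 39.3, and 35.1 CPM in WT and 46.3, 51.0, and 48.9 CPM in *Ifnar1*-/- libraries (-0.46, SE 0.14, adjusted p = 0.131, edgeR). *Ddx5* was at 831, 741, and 814 CPM in WT and 1050, 780, and 890 CPM in *Ifnar1*-/- libraries, which overlapped (-0.19, SE 0.16, adjusted p = 0.594). *Ddx17*, its paralog and partner, was at 214, 243, and 216 CPM in WT and 285, 202, and 219 CPM in *Ifnar1*-/- libraries (-0.07, adjusted p = 0.861). *Ifnar1*-/- library 1 was the highest for both paralogs, and *Ddx5* had fractional counts in all 6 libraries. *Ddx20*, of the SMN complex, and *Dhx9*, the RNA helicase A gene, were at -0.02 and 0.01. Mitochondrial *Ddx28* and *Dhx30* were at 0.27 and -0.13, and the less characterised *Dhx40*, *Dhx32*, and *Dhx57* at -0.34, -0.25, and 0.02.

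The fold changes of the members also varied with the GC content of their transcripts. Of the 23 members at or below the median GC content of 49.8%, 5 lay above 0 and 18 below (median log2 fold change -0.14), and of the 23 members above it, 16 lay above 0 and 7 below (median 0.14). Across the 46 members the Spearman correlation of GC content with log2 fold change was 0.531, beside 0.370 across 11242 tested genes, and all points share the same 6 libraries. With offsets for GC content and length in the fit these values were 0.286 and 0.0612, and the medians of the lower and higher groups were -0.11 and 0.05. *Ddx24* kept its call with the offsets (log2 fold change 0.80, adjusted p = 0.0293, edgeR), whereas *Ddx54* went from 0.41 to 0.07.

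**Figure D4:**
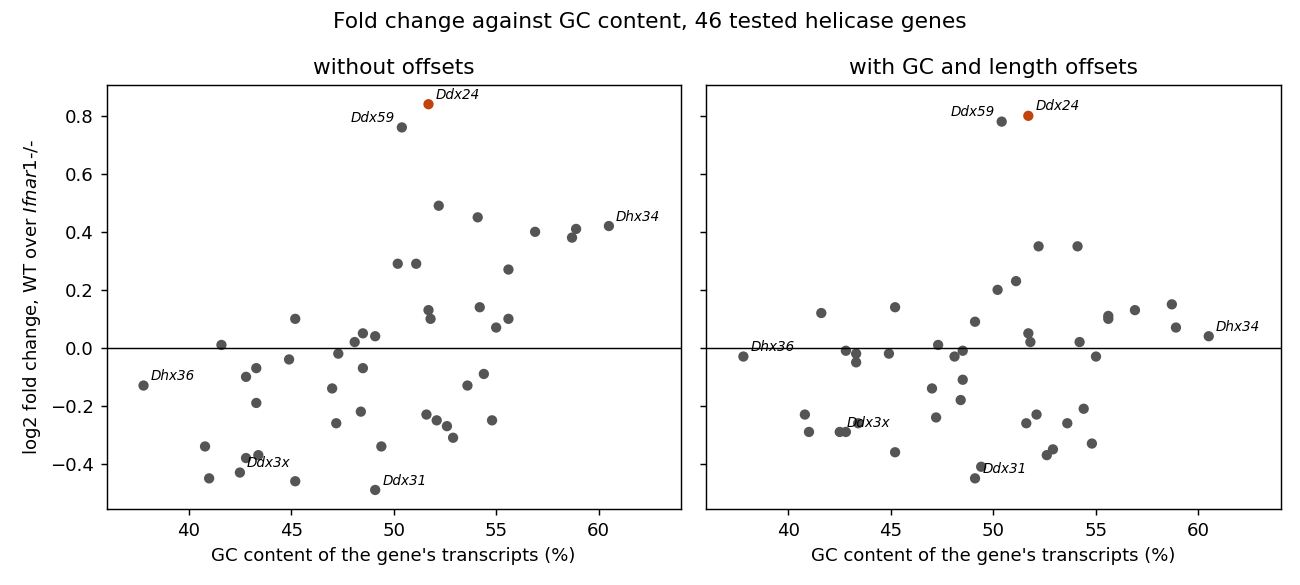
Log2 fold change (WT over *Ifnar1*-/-) of the 46 tested helicase genes against the GC content of their transcripts in percent, without (left) and with (right) offsets for GC content and length in the edgeR fit, with *Ddx24*, the called gene, in red. The points rise with GC content on the left (Spearman 0.531) and less so on the right (0.286).

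Summed over all members, CPM were 3754, 3257, and 3546 in WT and 3927, 3557, and 3675 in *Ifnar1*-/- monocytes, so the groups overlapped. The median deviation of the members from their mean over all libraries was 0.07, -0.09, and -0.02 in WT and 0.00, 0.04, and 0.04 in *Ifnar1*-/- libraries on the log2 scale. WT library 2 held the lowest value for 12 members and WT library 1 the highest for 13.

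The left-out sensors lay above every member in the same fit. *Ddx60* (56.1, 55.0, and 49.2 CPM in WT, 5.96, 4.07, and 5.52 CPM in *Ifnar1*-/- libraries), *Ddx58*, which encodes RIG-I, and *Dhx58*, which encodes LGP2, were upregulated in WT with log2 fold changes of 3.36, 2.38, and 1.94. Among 14 RNA helicases of other families, *Mov10*, *Znfx1*, *Helz2*, and *Ifih1*, the MDA5 gene, were called higher in WT (log2 fold changes 2.6, 2.12, 2.01, and 1.64), none was called lower, and the median was 0.30. The eIF4A genes, DEAD-box translation factors without a Ddx symbol, were not called, with log2 fold changes of -0.19 (*Eif4a1*), -0.30 (*Eif4a2*), and -0.13 (*Eif4a3*).

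Over 4 lists of genes that work with the helicases, 2 of 117 were called (1.71%, against 2.13% of all tested genes) and 69.2% lay below 0, against 51.8% of all tested genes. Of 22 cofactors of DEAD-box helicases, none was called, 6 lay above 0 and 16 below, and the median was -0.15. Of 18 G-patch cofactors, *Cmtr1*, which methylates the mRNA cap and binds the *Dhx15* product, was upregulated in WT. It was at 95.2 to 116 CPM against 61.3 to 66.0 CPM (log2 fold change 0.71, adjusted p = 0.0267, edgeR). This call was ended by 9 of 21 alternatives, among them the replicate block (0.70, adjusted p = 0.0548). The median of this list was 0.09. Of 39 ribosome biogenesis factors, 35 lay below 0 with a median of -0.30, and only *Nop58*, a box C/D snoRNP protein, was called, lower in WT (-0.77, adjusted p = 0.0481), a call that 16 of 21 alternatives ended. Of 38 core spliceosome genes none was called, 12 lay above 0 and 26 below, and the median was -0.10.

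**Figure D5:**
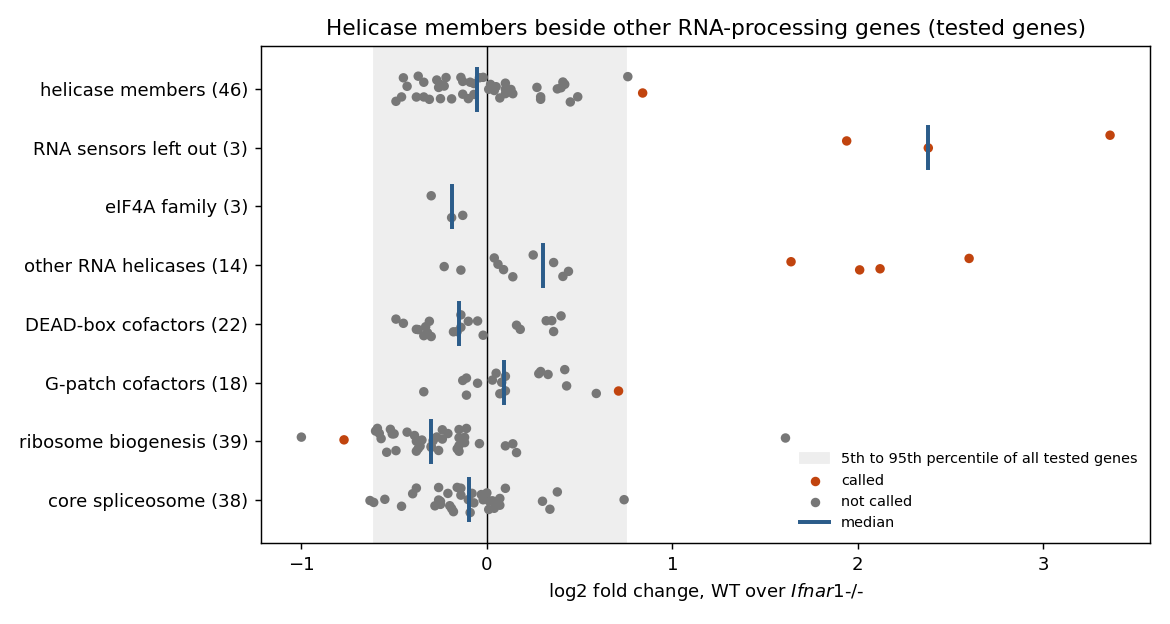
Log2 fold change (WT over *Ifnar1*-/-) of the tested helicase members and of 7 related gene lists, with 1 point per gene, called genes in red, medians as blue lines, and the 5th to 95th percentile of all tested genes shaded. The 3 left-out sensors (1.94 to 3.36) lie right of all 46 members (-0.49 to 0.84).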

How the data were processed

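RNA-seq of sorted CNS monocytes was analysed from the gene-level files of 3 WT and 3 *Ifnar1*-/- libraries, grouped by the deposited labels. The authors mapped reads with STAR 2.6.0c to GRCm38 and used RSEM 1.2.31, per the labels, to make the deposited expected counts (estimated, not normalized) and the deposited TPM (which RSEM scales to 1 fixed total). Labels and methods name different library kits. Expected counts were rounded, filtered with filterByExpr (minimum count 10, 11254 of 21265 genes with any count), TMM-normalized, and tested in R 4.3.3 with the edgeR 4.0.16 quasi-likelihood test and Benjamini-Hochberg adjustment over all tested genes, without a block. Calls required both a 1.5-fold difference and an adjusted p no larger than 0.05. Symbols and positions came from GENCODE M21, which matched 54165 identifiers. Normalized CPM were used for permutation tests on log2(CPM + 0.5).

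Members and lists were chosen with earlier results of these data known. Full values are given for called members, the 4 members with the smallest p in each direction, the 3 with the highest TPM, and paralog pairs, and for called genes of each list, eIF4A genes, sensors, and *Ifnar1*. *Dhx38*, *Ddx6*, the genes beside *Ddx24* and *Ddx59*, and the pair of printed promoter windows were chosen after their values were seen. Alternatives were DESeq2 1.42.0, RLE normalization, no filter, a minimum of 10 counts per library, limma-voom (3.58.1), removal of mitochondrial and ribosomal RNA genes, limma-trend on log2(TPM + 1) or log2(TPM + 0.1), an adjusted p alone, a replicate block, GC and length offsets, and leaving out each library. TPM rescaled to protein-coding genes and protein-coding genes alone were added after seeing the data. FPKM and transcript lengths in the files were otherwise not used, except for effective lengths. The result of 1 marker list is not reported here.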

Additional observations from a re-analysis of the deposited data

How the results depend on the processing

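At this depth and with 3 libraries per group, intervals of 27 of 46 tested members reached past a 1.5-fold difference. The cause of the changes below was not tested. *Ddx24* was the only member called in any alternative, and 0 members were called under limma-trend on log2(TPM + 1), log2(TPM + 0.1), and rescaled TPM (0 to 1 with 1 library left out). The member median ran from -0.10 to 0.01 with 1 library left out. Genes called higher in WT numbered 354 with DESeq2, 610 with no filter, 112 and 111 with TPM, and 110 to 204 with 1 library left out. Genes called lower numbered 115 with DESeq2, 262 with no filter, 16 and 13 with TPM, 18 with rescaled TPM, 30 with GC and length offsets, and 7 to 41 with 1 library left out. Related lists held 8 genes called higher with no filter, and 2 (DESeq2), 4 (no filter), or 0 called lower under RLE normalization, removal of mitochondrial and ribosomal RNA, limma-voom, TPM, rescaled TPM, the block with edgeR or DESeq2, offsets with or without the block, and 1 library left out. The median of DEAD-box cofactors was -0.19 and -0.23 with TPM, -0.03 with offsets, -0.04 with offsets and the block, and -0.16 to -0.10 with 1 library left out. That of G-patch cofactors ran from 0.07 to 0.19 with 1 library left out, and that of other RNA helicases was 0.09 with offsets. Over the alternatives, log2 fold changes of 18 of 46 tested members lay on both sides of 0. Among genes that the naming rule gives in full, the sign turned for *Ddx23* (-0.01 with TPM), *Ddx17* (0.01 with rescaled TPM, 0.11 without *Ifnar1*-/- library 1), *Ddx19b* (-0.01 with offsets, -0.02 to 0.12 with 1 library left out), *Ddx39b* (-0.03 with offsets), *Ddx21* (-0.37 to 0.03 with 1 library left out), *Eif4a2* (0.02 with offsets), and *Ifnar1* (-0.29 and -0.30 with TPM, -0.26 with rescaled TPM).

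Same-numbered libraries deviated together by correlations of 0.0872, 0.0265, and 0.289. Not every value was over 0.1, and the numbers were not taken to pair the libraries in the main test. These correlations cannot decide whether libraries shared a recipient, so a fit with pairs is given beside it. WT libraries 2 and 3 correlated best with their own number, and WT library 1 slightly better with *Ifnar1*-/- library 2 (0.101). A replicate block called 182 genes higher and 38 lower, and 1 member, *Ddx24* (log2 fold change 0.82, adjusted p = 0.0480, edgeR). It ended the call of *Cmtr1* (0.70, adjusted p = 0.0548).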
